A study of Mus musculus with 3 samples.

Results

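Cycling type 1 conventional dendritic cells (cDC1) were described in cultures of mouse dendritic cells grown with normal glutamine, little glutamine or a glutamine antagonist. A cell was a member when at least 4 of 9 cDC1 genes (Xcr1, Clec9a, Batf3, Naaa, Ifi205, Rab7b, Cadm1, Tlr3 and Gcsam) had a UMI, Siglech had at most 1, Ccr7, Fscn1 and Cd209a had none, and the proliferation genes Mki67 and Top2a together had at least 2. A UMI is 1 counted mRNA molecule. These criteria found 692 members among the 28903 cells that passed quality limits of 1000 UMIs, 500 detected genes and a mitochondrial share of 10%. The members were chosen by their own expression, so the levels of those 15 genes are given as a description only.

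The cells came from wild-type C57BL/6 mice and had been grown into dendritic cells in culture with the cytokine FLT3L. The groups were 2 mM glutamine with 1 µM DON, 50 µM glutamine, and 2 mM glutamine as the control. DON resembles glutamine and inactivates enzymes that take nitrogen from it. Each group was 1 library made with 10x Genomics 3′ chemistry. How many mice or culture wells went into a library is not given in the sources used here, so no difference between groups has a replicate check and no p-value is given. Intervals are 95% intervals, exact binomial (Clopper-Pearson) for shares and exact Poisson for expression. Those of ratios of shares are approximate, from the standard error of the log ratio. That of a ratio of CPM at very few counts is from an exact binomial split of the UMIs. They cover counting error only, not the spread between cells.

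cDC1 are specialised in cross-presentation, the display of engulfed antigen to CD8 T cells, and their identity depends on the transcription factors IRF8 and BATF3. They arise from dividing committed precursors, and some keep dividing after they have taken on cDC1 genes. A dividing cell first licenses its replication origins, copies its DNA in S phase with deoxynucleotides and new histones, and then builds a spindle and separates its chromosomes in G2 and M. Glutamine feeds this process as the nitrogen donor for purines and pyrimidines and as a carbon source.

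The DON library held 244 members among 8887 cells, the 50 µM library 48 among 9649, and the control library 400 among 10367. The median member had 14906 UMIs with DON, 11984 at 50 µM and 13434 in control, and the members' UMIs summed to 3701843, 628413 and 5708837 in that order. At 50 µM glutamine a level of 20 CPM (UMIs of a gene scaled to a fixed library total) therefore rests on few molecules, and single genes there are known far less precisely than with DON. Scrublet, a caller of droplets that hold more than 1 cell, marked 13, 1 and 28 of the members in that order. Of the members, 0 with DON, 1 at 50 µM and 3 in control had a cell barcode that also occurred in another library. All were kept. Without the marked cells, cycling cDC1 were 2.76%, 0.513% and 3.93% of the cells. Shares and gene counts that moved and larger ratios that changed sign without either set are given at the end.

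The label was checked against genes that the criteria did not use. Id2, a factor that favours conventional over plasmacytoid cells, had 953 CPM in cycling cDC1 with DON, 980 CPM at 50 µM and 1076 CPM in control. In cycling cells of the plasmacytoid lineage, which had at least 2 Siglech UMIs, Id2 had 124, 70.6 and 282 CPM in the same order. Wdfy4, which cDC1 need for cross-presentation, had 293, 296 and 315 CPM in cycling cDC1, against 64.3, 60.9 and 96.9 CPM in cycling plasmacytoid cells. Cst3, a general conventional dendritic cell gene, had 18266, 15743 and 18710 CPM, against 3459, 2230 and 5920 CPM. The 14 plasmacytoid genes summed to 597, 539 and 597 CPM in cycling cDC1, against 5623, 6342 and 4908 CPM in the cycling plasmacytoid cells. Irf8, which both lineages use, did not separate them, with 1536, 1219 and 1475 CPM in cycling cDC1 and 1957, 1783 and 1781 CPM in cycling plasmacytoid cells. The integrin gene Itgae, which encodes CD103, was nearly absent at 1.62, 1.59 and 5.96 CPM, and Cd8a had no UMI with DON or at 50 µM and 0.175 CPM in control.

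Markers of other cells were present at differing levels. The 18 cDC2 genes summed to 652, 696 and 560 CPM with DON, at 50 µM and in control. S100a4 led them with 372, 411 and 285 CPM and had a UMI in 75.4%, 75% and 63.8% of the members. The 12 progenitor and granule genes summed to 208, 113 and 112 CPM, and the 15 mature dendritic cell genes to 161, 148 and 195 CPM. No cDC2 population was set beside the members, so the label was not checked against cDC2 cells. The 9 B lineage genes summed to 6.48, 23.9 and 6.13 CPM with DON, at 50 µM and in control, the 7 T and NK genes to 2.16, 3.18 and 2.1 CPM, and the 5 basophil and mast cell genes to 2.16, 1.59 and 1.58 CPM. The 10 neutrophil genes summed to 931 CPM with DON, 79.6 CPM at 50 µM and 277 CPM in control. With DON, 1 cell held 79.1% of the S100a8 UMIs, 82.7% of those of S100a9 and 89.8% of those of Ngp, and 79.7% of those of the granule protease gene Prtn3. The 12 monocyte and macrophage genes summed to 673, 1111 and 778 CPM, mostly from Lyz2 and Ccr2. At 50 µM, 7 of those 12 had no UMI, among them Cd14, C1qa and Fcgr1, while none of the 12 was at 0 with DON or in control.

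Among the genes of the criteria, Xcr1, the chemokine receptor that marks cDC1, stood lower in both treated libraries. It had 45.9 CPM with DON and 54.1 CPM at 50 µM, against 122 CPM in control. After thinning each cell to 5000 UMIs, 18.4% of the DON members, 20.8% of the 50 µM members and 34.8% of the control members had an Xcr1 UMI (intervals 13.8 to 23.9%, 10.5 to 35% and 30.1 to 39.7%). Before thinning the shares were 31.6%, 25% and 51%. In cycling plasmacytoid cells, which should lack the gene, 0.896%, 0.837% and 5.91% had one after the same thinning. Before thinning, at median depths of 12261, 10218 and 11094 UMIs, 2.01%, 1.28% and 10.1% of them did. Clec9a, the receptor for exposed actin of dead cells, had 46.7, 60.5 and 62.7 CPM, and Batf3 had 155, 105 and 152 CPM. Naaa, a lipid amidase gene, had 310, 399 and 490 CPM. Ifi205 had 267, 194 and 276 CPM, and Tlr3 had 47.8, 41.4 and 53.4 CPM. Not all of the 9 were lower in both treated libraries. Rab7b was close in level with 274, 256 and 269 CPM, and Cadm1 had 21.9, 54.1 and 37.3 CPM, highest at 50 µM.

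The members with exactly 4 of the 9 cDC1 genes were 32% of the DON members (78 cells), 47.9% of the 50 µM members (23 cells) and 25.5% of the control members (102 cells). Just outside, 93, 38 and 65 cells met all other criteria with 3 of the 9. On the other threshold, 25, 4 and 50 members had exactly 2 UMIs of Mki67 and Top2a, and 57, 25 and 123 cDC1 had 1. A further 28, 40 and 42 cells were kept out only by a Cd209a UMI, so at 50 µM that criterion removed nearly as many cells as it left.

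Cycling cDC1 were a smaller part of the culture in both treated libraries. They were 2.75% of the cells with DON (2.42 to 3.11%) and 0.497% at 50 µM glutamine (0.367 to 0.659%), against 3.86% in control (3.5 to 4.25%). The share was 0.712 times that of control with DON (0.608 to 0.832) and 0.129 times at 50 µM (0.0957 to 0.174). Both intervals lie below 1. Thinning every cell to 5000 UMIs before the criteria were applied lowered all shares, to 1.34% with DON, 0.233% at 50 µM and 2.95% in control, and the ratios to 0.455 with DON and 0.079 at 50 µM.

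All cDC1, cycling or not, were 5.83% of the cells with DON and 1.45% at 50 µM, against 11.2% in control. The share of them that was cycling was higher with DON and close to control at 50 µM. With DON, 244 of 518 cDC1 were cycling, which is 47.1% (42.7 to 51.5%). At 50 µM, 48 of 140 were cycling, which is 34.3% (26.5 to 42.8%), and in control 400 of 1158, which is 34.5% (31.8 to 37.4%). The ratio to control was 1.36 with DON (1.21 to 1.54) and 0.993 at 50 µM (0.779 to 1.27). In thinned cells the shares were 36.1%, 20.2% and 27.2%, with ratios of 1.33 (1.1 to 1.6) and 0.744 (0.485 to 1.14). The cycling share at 50 µM thus could not be told from that of control with these cell numbers. cDC1 with no UMI of Mki67 or Top2a, called resting cDC1 here, were 2.44% of the cells with DON and 0.694% at 50 µM, against 6.13% in control.

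Around the cDC1 the cultures held more dividing cells. Cells with at least 2 UMIs of Mki67 and Top2a were 34.5% of the DON library and 45.9% of the 50 µM library, against 25.1% of the control library. Among these, cDC1 were 7.95% with DON and 1.08% at 50 µM, against 15.4% in control. Among plasmacytoid lineage cells the cycling share was 31.8% with DON and 46.2% at 50 µM, against 21.4% in control, ratios of 1.49 (1.38 to 1.6) and 2.16 (2.02 to 2.32). At 50 µM the plasmacytoid ratio of 2.16 stood above the cDC1 ratio of 0.993, and with DON the ratios were 1.49 and 1.36. The intervals cover counting error within single libraries only, so a difference between the lineages was not tested.

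**Figure D1:**
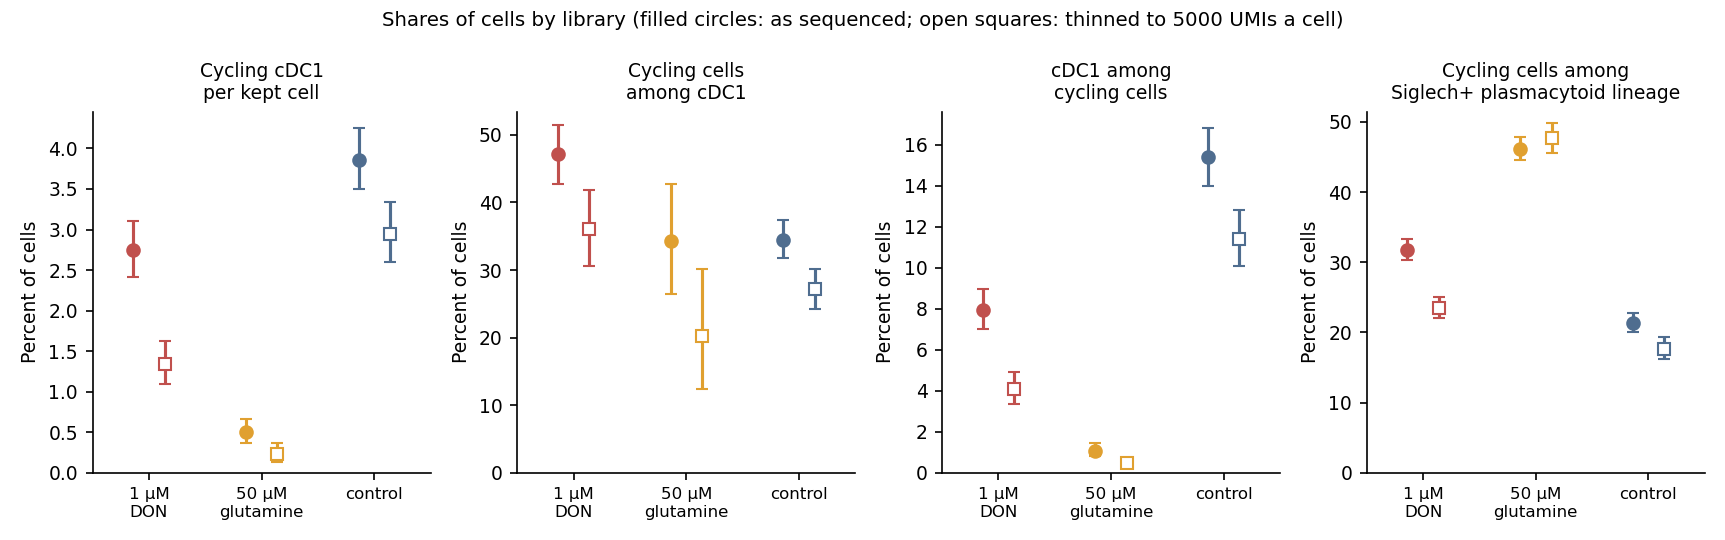
Shares of cells in each library, in percent of the cells named above each panel, with 95% binomial intervals as bars; filled circles are cells as sequenced and open squares cells thinned to 5000 UMIs. Cycling cDC1 are 2.75% of the cells with DON and 0.497% at 50 µM, against 3.86% in control, while the cycling share of cDC1 is 47.1%, 34.3% and 34.5%.

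The cell cycle program of the members was set beside that of resting cDC1 of the same library, a description since the criteria used Mki67 and Top2a. Of 6362 genes, 304 (4.78%) were at least 2-fold higher in cycling than in resting cDC1 in all 3 libraries. They took in 25 of 25 spindle and cytokinesis genes, 23 of 24 condensin, cohesin and kinetochore genes, 17 of 20 mitotic kinase and checkpoint genes, 11 of 11 histone genes, 10 of 14 origin licensing genes and 16 of 27 replication fork genes. Only 2 genes (0.0314%) were at least 2-fold lower in all 3, named here after their values were seen. The Schlafen gene Slfn5 had 64.8, 79.6 and 82.2 CPM in cycling cDC1, against 277, 338 and 300 CPM in resting cDC1, with DON, at 50 µM and in control. Mxd4, a partner of MAX that opposes MYC, had 12.4, 15.9 and 13.8 CPM, against 37.7, 46.5 and 35.2 CPM. Antigen presentation was lower by less: the median log2 ratio of the 13 MHC class II genes was -0.37 with DON, -0.56 at 50 µM and -0.36 in control. The 9 interferon response genes measured there had medians of -0.60, -0.39 and -0.53.

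DNA replication genes took a larger part of the members' mRNA in both treated libraries, and mitotic genes a smaller part at 50 µM glutamine. The 56 genes of the S list held 0.446% of the members' UMIs with DON and 0.494% at 50 µM, against 0.399% in control. The 69 genes of the G2/M list held 1.01% with DON and 0.889% at 50 µM, against 0.987% in control. From cell to cell these shares varied widely: the middle 50% of cells spanned 0.198 to 0.673% for the S list with DON, 0.345 to 0.654% at 50 µM and 0.174 to 0.608% in control. For the G2/M list the same span was 0.467 to 1.37%, 0.483 to 1.11% and 0.455 to 1.34%. In thinned cells the S shares were 0.443%, 0.512% and 0.411%, and the G2/M shares 0.982%, 0.883% and 0.95%. In cycling plasmacytoid cells both lists were higher in the treated libraries, with S shares of 0.468%, 0.524% and 0.404% and G2/M shares of 1.26%, 1.26% and 1.07%. Both were also higher there in resting cDC1, so the larger S share was not particular to the members. Resting cDC1 had S shares of 0.159%, 0.156% and 0.123% and G2/M shares of 0.105%, 0.117% and 0.0969%.

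**Figure D2:**
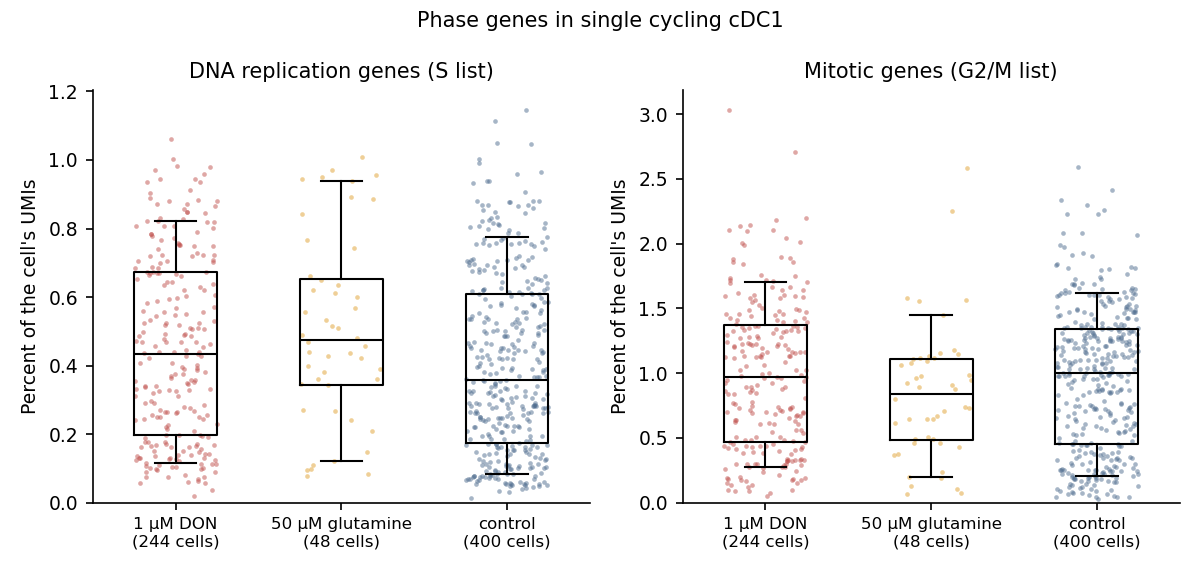
Share of each cycling cDC1's UMIs, in percent, that comes from the S list (left) and the G2/M list (right); points are cells, boxes span the middle 50% with the median, and whiskers run from the 10th to the 90th percentile. The S medians are 0.435% with DON and 0.476% at 50 µM, against 0.357% in control, and the G2/M medians 0.969%, 0.84% and 1%, with wide overlap between the libraries.

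Each expression ratio compares treated with control CPM on the log2 scale, after 5 CPM were added to both. A gene was measured when it reached 20 CPM in 1 of the 2 libraries compared. With DON, 5578 genes were measured. Of these 5 (0.0896%) lay 2-fold or more above control and 11 (0.197%) lay 2-fold or more below it, and 19 (0.341%) and 37 (0.663%) passed 1.5-fold. At 50 µM, 5925 genes were measured. Of these 54 (0.911%) lay 2-fold or more above control and 49 (0.827%) below it, and 435 (7.34%) and 253 (4.27%) passed 1.5-fold. The median of all genes was 0.05 with DON and 0.07 at 50 µM. The larger shares at 50 µM include the counting error of 48 cells. The 5 genes higher with DON were the neutrophil and granule genes S100a8, S100a9, Ngp, Prtn3 and Elane, and without the 3 DON and 7 control members that had at least 10 UMIs of such genes the count was 0. That comparison was added after the data were seen. The cells left out were chosen by UMIs of genes that include these 5, so the lower count follows in part from that choice.

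Origin licensing and firing genes had higher levels in the treated libraries. With DON all 14 measured members lay above 0, between 0.06 and 0.53 with a median of 0.22, but none reached 1.5-fold. At 50 µM, 11 of 14 lay above 0, the median was 0.33, and 3 were at least 1.5-fold higher. Cdt1, which loads the MCM helicase onto origins, had 31.1 CPM with DON and 49.3 CPM at 50 µM, against 25.9 CPM in control, ratios of 0.22 and 0.81. Cdc6, its partner in loading, had 27.6 and 31.8 CPM, against 17.5 CPM, ratios of 0.53 and 0.71. The helicase subunit gene Mcm6 had 123 and 150 CPM, against 101 CPM, and Mcm7 had 153 and 185 CPM, against 129 CPM. Replication fork genes had medians of 0.14 with DON (22 of 27 above 0) and 0.29 at 50 µM (23 of 26 above 0). The medians of all measured genes were themselves above 0, at 0.05 and 0.07. No fork gene was 1.5-fold higher with DON, and 2 of 26 were at 50 µM, close to the 7.34% of all genes there. In resting cDC1 the origin licensing medians were 0.48 with DON and 0.42 at 50 µM, with 9 genes measured under each.

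Deoxynucleotide supply showed the same order at 50 µM, where 9 of 9 measured genes lay above 0 with a median of 0.26; with DON 6 of 9 did, with a median of 0.09. Tk1, the thymidine kinase of S phase, had 77.5 CPM with DON and 127 CPM at 50 µM, against 79.5 CPM in control. Rrm2, the regulated subunit of ribonucleotide reductase, had 125 and 142 CPM, against 117 CPM. DNA repair and checkpoint genes had medians of 0.20 with DON and 0.36 at 50 µM. There 2 of 11 were at least 1.5-fold higher, against 7.34% of all genes.

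The histone list went the other way at 50 µM. Of the 11 measured histone genes, 0 lay above 0 there, 4 were at least 1.5-fold lower, and the median was -0.24. With DON the median was -0.12 and none passed 1.5-fold. Not all histone genes outside the list were lower at 50 µM. The linker histone gene H1fx had 35 CPM there (22 UMIs), against 5.08 CPM in control (29 UMIs), a ratio of 1.99. H1f0, another linker histone gene outside the list, had a ratio of -1.67. The linker histone gene Hist1h1b had 890 CPM with DON and 622 CPM at 50 µM, against 968 CPM in control, and Hist1h2ap had 117 and 65.2 CPM, against 159 CPM. Replication-dependent histone mRNAs mostly lack a poly(A) tail and the library chemistry captures poly(A) RNA, so these levels cover only molecules that were primed. Near-identical histone genes can also share reads.

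Among the cyclins and their kinases, cyclin E genes were higher at 50 µM, and the mitotic pair Cdk1 and Ccnb1 was lower. Ccne1, which encodes cyclin E1 and lies at chr7:38097984-38107534 (GRCm38, minus strand), had 25.1 CPM with DON, 50.9 CPM at 50 µM (34.8 to 71.9) and 21.5 CPM in control (17.9 to 25.7). Its ratios were 0.18 with DON and 1.07 at 50 µM, where 1 of the 48 cells held 18.8% of its UMIs. In thinned cells 9.43%, 20.8% and 7.05% had a Ccne1 UMI (intervals 6.07 to 13.8%, 10.5 to 35% and 4.74 to 10%). Ccne2 had 46.2 and 54.1 CPM, against 32.9 CPM. The early-G1 genes Ccnd2 and Cdk6 had ratios of 0.83 and 0.86 at 50 µM and of -0.17 and 0.02 with DON. When the criteria were applied to thinned cells, 18 members were left at 50 µM, and those ratios were -0.31 and -2.72. Among the mitotic regulators, Cdk1 had 189 CPM with DON and 115 CPM at 50 µM, against 180 CPM in control, and Ccnb1, its cyclin B1 partner, had 95.9 and 63.7 CPM, against 97.7 CPM. Neither direction held for all of the family: the other B-type gene Ccnb2 had 91.8 and 87.5 CPM, against 86.4 CPM, and the G1 cyclin gene Ccnd1 had 511 and 415 CPM, against 452 CPM. Of the list's measured members at 50 µM, 6 of 23 passed 1.5-fold upward and 1 downward, and with DON none of 24 passed in either direction.

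The mitotic kinase and spindle lists had lower medians at 50 µM and were near control with DON. The median of the 20 mitotic kinase, checkpoint and APC/C genes was 0.02 with DON and -0.21 at 50 µM, where 4 of 20 lay above 0. The 25 spindle and cytokinesis genes had medians of 0.04 and -0.25, and 5 of them lay above 0 at 50 µM. Few genes moved far there: 2 of the 20 and 2 of the 25 were at least 1.5-fold lower, against 4.27% of all genes. The highest ratios of these lists at 50 µM were 0.39 for Mybl2 and 0.52 for Aspm, of which 1 cell held 19.4% of the UMIs. Ube2c, the ubiquitin-conjugating enzyme of the anaphase-promoting complex, had 466 CPM with DON and 302 CPM at 50 µM, against 440 CPM in control. Birc5, or survivin, had 422 and 318 CPM, against 416 CPM. The tubulin gene Tuba1c had 155 and 81.2 CPM, against 168 CPM, and Tubb4b had 401 and 261 CPM, against 416 CPM. Cdc20, the activator of that complex, was close in level with 99.4 and 85.9 CPM, against 88.1 CPM. Condensin, cohesin and kinetochore genes had a median of 0.07 under both treatments, and none passed 1.5-fold.

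Of the cell cycle brakes, Cdkn1a had ratios of opposite sign under the treatments. Cdkn1a, which encodes the CDK inhibitor p21 and lies at chr17:29090976-29100727 (GRCm38, plus strand), had 31.9 CPM with DON (26.4 to 38.2) and 95.5 CPM at 50 µM (72.9 to 123), against 48.3 CPM in control (42.8 to 54.4). The ratios were -0.53 and 0.91, and the 3 intervals do not overlap, but 1 of the 48 cells at 50 µM held 35% of the UMIs. In members thinned to 5000 UMIs, 10.7% with DON (7.08 to 15.2%) and 22.9% at 50 µM (12 to 37.3%) had a Cdkn1a UMI, against 13.9% in control (10.6 to 17.6%), and both treated intervals overlap that of control. Resting cDC1 had the same order, with 22.7 CPM with DON and 62.6 CPM at 50 µM, against 41.9 CPM in control. Cdkn2d, which encodes the CDK4 and CDK6 inhibitor p19, had 98.3 and 50.9 CPM, against 112 CPM, and its ratio at 50 µM was -1.06. Of the p53 target list, 3 of 9 measured genes were at least 1.5-fold higher at 50 µM, with a median of 0.40. With DON none of 6 was higher and the median was 0.00. The other populations did not share this at 50 µM. The median there was -0.05 in resting cDC1, with none of 7 genes 1.5-fold higher. It was 0.16 in cycling plasmacytoid cells, with none of 8 higher.

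**Figure D3:**
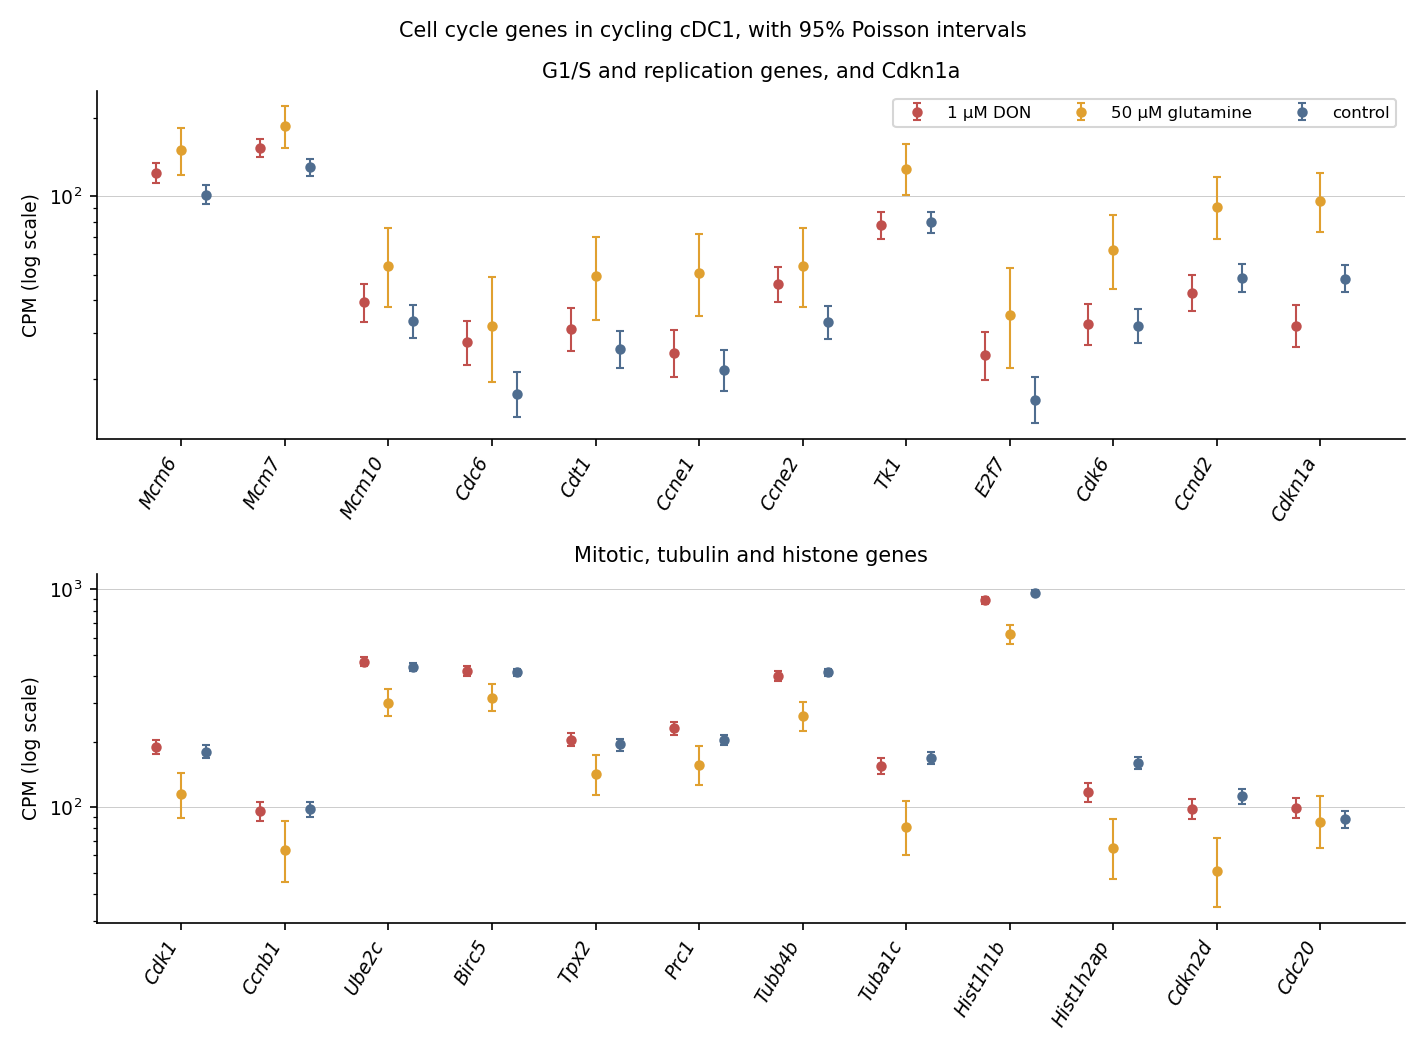
Levels of chosen cell cycle genes in cycling cDC1 in CPM (log axes), by library, with 95% Poisson intervals as bars. Mitotic genes with higher levels at 50 µM, such as Aspm, are not shown. The upper panel holds replication genes, cyclins of G1 and Cdkn1a, of which the 50 µM points are the highest, and the lower panel mitotic, tubulin and histone genes and Cdkn2d, of which they are the lowest in each gene shown.

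The promoters of the mitotic genes were read for the cell cycle homology region (CHR), an element through which mitotic genes are switched on late in the cycle. Sequences were RefSeq promoters of GRCm38.p6 that run from 250 bases before to 50 after a gene's start, of which the table has 32851 for 27025 genes. The letters TTTGAA on either strand were in 9 of 17 matched mitotic control genes (52.9%) and 19 of 22 matched spindle genes (86.4%), against 20.2% of all genes. The letters CCAAT, which do not overlap it, were in 70.6% and 72.7% of the same genes, against 41.1% of all genes. The E2F letters TTTCCCGC were in 4 of 14 origin genes (28.6%), 2 of 24 fork genes (8.33%) and none of 9 deoxynucleotide genes, against 1.24% of all genes. Genes with several listed promoters have more chances of a match, and a match is a string of letters and not a measured site. The Cdc20 promoter (chr4:118437294-118437593, minus strand) is shown with its CHR in capitals, 18 bases before the start.
Cdc20: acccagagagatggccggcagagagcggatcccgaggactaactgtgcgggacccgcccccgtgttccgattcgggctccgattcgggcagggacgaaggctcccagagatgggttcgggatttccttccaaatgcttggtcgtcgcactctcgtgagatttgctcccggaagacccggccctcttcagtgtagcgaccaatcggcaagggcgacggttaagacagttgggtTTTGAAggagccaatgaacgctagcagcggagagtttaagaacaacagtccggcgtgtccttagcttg

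Among the metabolic genes, glycolysis was lower in both treated libraries. With DON 1 of the 14 measured genes lay above 0, 4 were at least 1.5-fold lower and the median was -0.42. At 50 µM none lay above 0, 10 of 14 were at least 1.5-fold lower and the median was -0.92. Pgk1, phosphoglycerate kinase, had 351 CPM with DON and 185 CPM at 50 µM, against 551 CPM in control, ratios of -0.64 and -1.55. Aldoa, aldolase, had 441 and 189 CPM, against 659 CPM, ratios of -0.58 and -1.77; the symbol stands at 2 gene IDs, and the values are those of ENSMUSG00000030695. Tpi1 had 187 and 142 CPM, against 288 CPM. Gapdh had 1817 and 1252 CPM, against 2155 CPM, and Pkm had 413 and 280 CPM, against 562 CPM. The lactate exporter gene Slc16a3 had 9.18 CPM with DON and 2 UMIs at 50 µM, against 34 CPM in control; at 50 µM that is 0.0937 times the control level (0.0113 to 0.343). Hk2, which commits glucose to the pathway, had 57.5 CPM with DON, equal to control within counting error at 57.3 CPM, and 38.2 CPM at 50 µM.

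Targets of the hypoxia-inducible factors followed the same order for some members. The median of 10 measured genes was -0.33 with DON and -0.51 at 50 µM, and 4 of 10 were at least 1.5-fold lower under each. Ankrd37, an ankyrin repeat gene and a hypoxia-factor target, was the lowest gene of at least 50 CPM under both treatments. It lies at chr8:45996902-46005707 (GRCm38, minus strand) and had 18.6 CPM with DON (14.5 to 23.6) and 6.37 CPM at 50 µM (4 UMIs, 1.73 to 16.3), against 65.7 CPM in control (59.2 to 72.7). Mif, a cytokine gene of the same list, had 588 and 239 CPM, against 810 CPM. Bnip3, which acts in mitophagy, had 13.8 and 17.5 CPM, against 31.5 CPM. Ndrg1 and Ero1l were not lower at 50 µM, with ratios of 0.47 and 0.35.

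The core of the hypoxia response element, ACGTG on either strand, was in 12 of 17 matched glycolysis genes (70.6%) and 9 of 11 matched hypoxia-factor targets (81.8%), against 21.8% of all genes. The promoters of Ankrd37 (chr8:45999801-46000100, minus strand) and Pgk1 (chrX:106186850-106187149, plus strand) are shown with these letters in capitals, because both genes were among the lowest under both treatments. The RefSeq start of Ankrd37 lies inside the GENCODE span given above, whose 5′ end is farther upstream, and which start these cells use was not examined. Each holds 2 matches.
Ankrd37: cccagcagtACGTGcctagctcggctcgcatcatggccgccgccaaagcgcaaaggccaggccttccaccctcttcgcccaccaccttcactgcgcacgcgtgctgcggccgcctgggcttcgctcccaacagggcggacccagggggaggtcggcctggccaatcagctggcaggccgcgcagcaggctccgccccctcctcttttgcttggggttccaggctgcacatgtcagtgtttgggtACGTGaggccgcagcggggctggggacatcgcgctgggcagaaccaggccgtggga
Pgk1: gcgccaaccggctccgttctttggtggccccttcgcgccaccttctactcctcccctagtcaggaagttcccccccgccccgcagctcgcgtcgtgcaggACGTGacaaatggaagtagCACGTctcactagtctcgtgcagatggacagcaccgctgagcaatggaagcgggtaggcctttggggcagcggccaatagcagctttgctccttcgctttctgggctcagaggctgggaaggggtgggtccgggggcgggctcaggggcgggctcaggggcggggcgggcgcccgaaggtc

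Cholesterol synthesis genes took opposite directions under the treatments. With DON 17 of 18 measured genes lay above 0, with a median of 0.26, and none reached 1.5-fold. At 50 µM, 2 of 18 lay above 0, 10 were at least 1.5-fold lower and the median was -0.67. Cyp51, lanosterol demethylase, had 103 CPM with DON and 22.3 CPM at 50 µM, against 76 CPM in control, ratios of 0.41 and -1.57. Fdps, farnesyl diphosphate synthase, had 432 and 183 CPM, against 341 CPM. Idi1 had 155 and 49.3 CPM, against 123 CPM. Scd2, a desaturase of fatty acid synthesis, had 239 and 57.3 CPM, against 203 CPM, ratios of 0.23 and -1.74. The sterol response letters TCACNCCAC were in 1 of 16 matched promoters of the list (6.25%), that of Hmgcs1, and in 1.44% of all genes.

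In resting cDC1 the cholesterol list had a median of 0.54 with DON and -0.16 at 50 µM, where 2 of 17 measured genes were at least 1.5-fold lower. Cyp51 had 109 CPM with DON and 57.2 CPM at 50 µM, against 70.2 CPM in control, in those resting cells, and Idi1 had 159 and 98.4 CPM, against 100 CPM. The cycling plasmacytoid cells had medians of 0.29 and -0.43. The glycolysis medians differed less between populations, at -0.25 and -0.95 in resting cDC1 and -0.49 and -1.13 in cycling plasmacytoid cells. No test of these differences is possible with 1 library per group, and the 48 cycling and 67 resting cDC1 at 50 µM limit their precision.

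Targets of ATF4, the factor of the amino acid and integrated stress responses, were higher at 50 µM and near control with DON. At 50 µM all 10 measured targets lay above 0, 6 were at least 1.5-fold higher and the median was 0.69. With DON the median was 0.10, and 1 of 9 was at least 1.5-fold higher. Asns, asparagine synthetase, which uses glutamine as its nitrogen donor, had 4.05 CPM with DON and 27.1 CPM at 50 µM (15.8 to 43.3), against 3.33 CPM in control (2 to 5.2). Its 17 UMIs at 50 µM came from 7 cells, and 1 cell held 47.1% of them. Shmt2, of mitochondrial serine use, had 21.1 and 47.7 CPM, against 15.4 CPM. Phgdh, which starts serine synthesis from glucose, had 16.5 and 49.3 CPM, against 24.2 CPM. The amino acid transporter gene Slc7a5 was higher under both, with 24.6 and 41.4 CPM, against 13.3 CPM. In the 18 members left at 50 µM after thinning, the ratios of Shmt2, Phgdh and Slc7a5 were -0.23, -2.20 and -0.52, so their direction there depends on the cells counted. A single cell held 23.3% of the Shmt2 UMIs, 25.8% of the Phgdh UMIs and 19.2% of the Slc7a5 UMIs at 50 µM. In resting cDC1 the list's median was -0.04 with DON and 0.42 at 50 µM, and in cycling plasmacytoid cells 0.13 and 0.64. The C/EBP-ATF letters TGATGNAA were in 8 of 22 matched ATF4 targets (36.4%), against 4.51% of all genes. The Asns promoter (chr6:7693160-7693459, minus strand) is shown with that match in capitals, 23 bases before the start.
Asns: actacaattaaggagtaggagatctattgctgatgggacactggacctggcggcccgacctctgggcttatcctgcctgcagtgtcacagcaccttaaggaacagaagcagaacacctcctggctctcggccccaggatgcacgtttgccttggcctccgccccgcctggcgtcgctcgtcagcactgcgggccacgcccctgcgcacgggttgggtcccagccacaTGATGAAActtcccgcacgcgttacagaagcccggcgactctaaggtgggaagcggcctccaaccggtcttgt

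**Figure D4:**
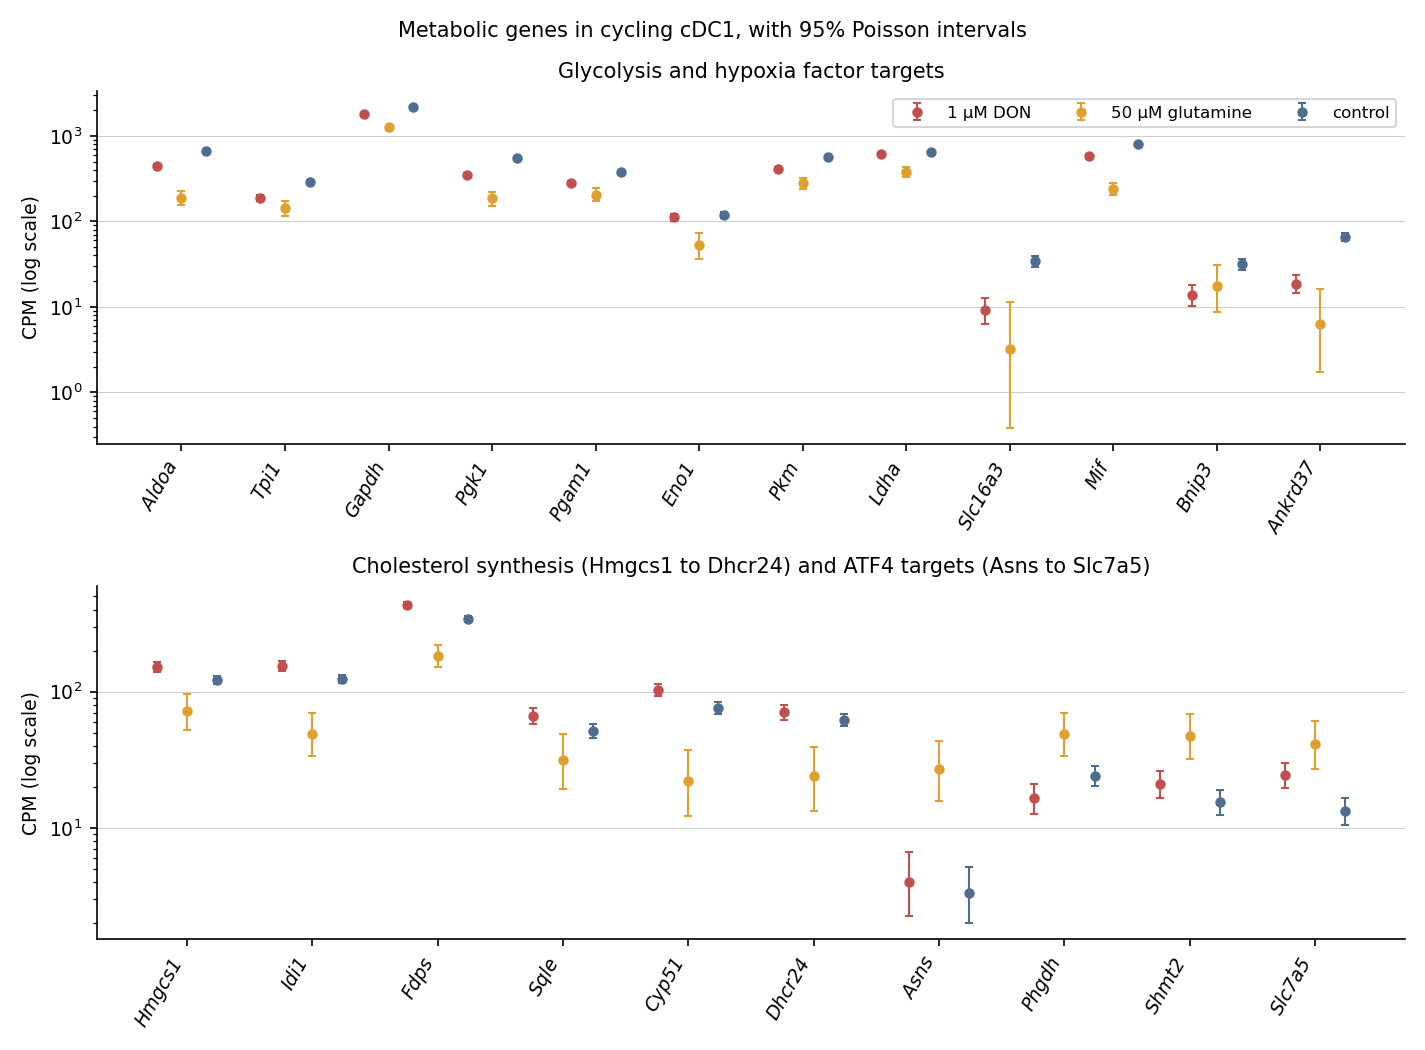
Levels of metabolic genes in cycling cDC1 in CPM (log axes), by library, with 95% Poisson intervals as bars. In the upper panel every DON point except that of Bnip3 lies between the 50 µM and control points; in the lower panel the cholesterol genes are highest with DON and lowest at 50 µM, and the 4 ATF4 targets are highest at 50 µM.

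Genes that handle glutamine itself were near control with DON and had a somewhat higher median at 50 µM. Their medians were 0.05 with DON (10 measured) and 0.26 at 50 µM (11 measured). At 50 µM, 8 of 11 lay above 0 and 1 was at least 1.5-fold higher. Of all genes measured there, 7.34% were at least 1.5-fold higher and the median was 0.07, so that count is close to the general share. Slc38a2, a sodium-coupled amino acid transporter, had 105 CPM with DON and 154 CPM at 50 µM, against 98.8 CPM in control. Slc1a5, the main glutamine importer of many dividing cells, had 43.5 and 63.7 CPM, against 42.6 CPM. Purine synthesis genes had medians of 0.12 and 0.16, and at 50 µM 3 of 12 were at least 1.5-fold higher.

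Genes of cDC1 identity outside the criteria were lower by small amounts, with medians of -0.18 with DON and -0.16 at 50 µM over 10 measured genes. Cd24a, a surface protein gene of cDC1, was the exception in size at 50 µM. It had 87.3 CPM with DON and 50.9 CPM at 50 µM (34.8 to 71.9), against 127 CPM in control (118 to 136). Its ratios were -0.51 and -1.24. Snx22 had the same ratio of -0.51 with DON and -0.15 at 50 µM. Sept3 had 132 and 158 CPM, against 178 CPM, and Ppt1, a lysosomal thioesterase gene, had 226 and 236 CPM, against 310 CPM. Id2 and Irf8 stayed within 1.5-fold under both treatments. The MHC class II list had medians of -0.29 with DON and -0.20 at 50 µM. H2-Eb1 had 2082 and 2915 CPM, against 3043 CPM, and the invariant chain gene Cd74 had 9114 and 10420 CPM, against 11645 CPM. H2-DMb2, a peptide loading gene, had 47.5 and 12.7 CPM, against 38.5 CPM.

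**Figure D5:**
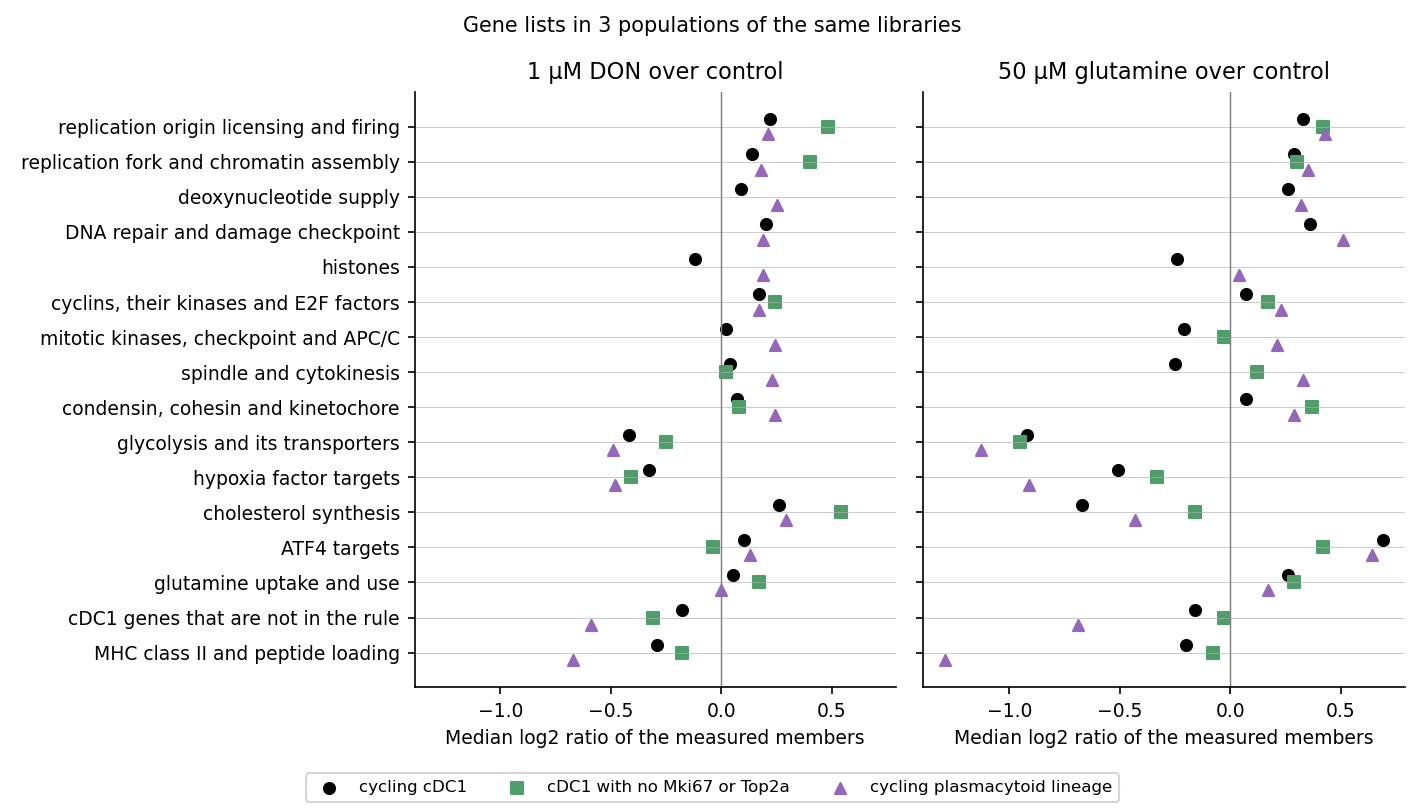
Median log2 ratio of treated over control for the measured members of each gene list, with DON on the left and 50 µM glutamine on the right, in cycling cDC1 (circles), cDC1 with no UMI of Mki67 or Top2a (squares) and cycling plasmacytoid lineage cells (triangles); a population with fewer than 5 measured members of a list has no symbol. Glycolysis is below 0 in all 3 populations under both treatments, cholesterol synthesis is above 0 with DON and below 0 at 50 µM, and the spindle and mitotic kinase medians at 50 µM are below 0 in cycling cDC1 and above 0 in the plasmacytoid cells.

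Among single genes of at least 50 CPM, those lowest with DON after Ankrd37 were Ctla2b, a cysteine protease inhibitor gene, and Tgfbi, a matrix protein gene. Ctla2b had 33.2 CPM with DON and 126 CPM at 50 µM, against 98.8 CPM in control, ratios of -1.44 and 0.33. Tgfbi had 40.3 and 62.1 CPM, against 75.7 CPM, and Klf2, a quiescence-associated transcription factor, had 78.3 and 85.9 CPM, against 130 CPM. The highest with DON were Kynu, kynureninase, with 55.4 and 41.4 CPM, against 31.4 CPM, and Cdca7, an S phase gene, with 60 and 76.4 CPM, against 37.5 CPM. The 11 genes at least 2-fold lower with DON are named here after their values were seen. They were Cd81, Lpl, Ankrd37, Mmp12, Gpnmb, Slc16a3, Ctla2b, Ly86, Ccl5, Apoe and Agpat3. Cd81, a tetraspanin gene, had the lowest ratio at -1.77, with 5.94 CPM with DON and 32.4 CPM in control, and its ratio in resting cDC1 was -2.05. Lpl, Mmp12, Gpnmb and Apoe are genes that macrophages express strongly. Lpl, lipoprotein lipase, had 10.8 CPM with DON and 1 UMI at 50 µM, against 47.1 CPM in control, and Gpnmb had 4.86 CPM with DON and no UMI at 50 µM, against 24 CPM in control, which makes it at least 5.03-fold lower at 50 µM by the limit of 3 counts. The ratios with DON in resting cDC1 were -0.18 for Lpl, -1.15 for Mmp12, 0.18 for Gpnmb and 0.45 for Apoe. With cells of 3 of the 9 cDC1 genes added, the ratios with DON in cycling cells were 1.41 for Lpl, 0.00 for Mmp12 and 0.04 for Gpnmb, so these differences depend on which cells are members. A single cell held 60% of the Lpl UMIs, 67.6% of the Mmp12 UMIs and 55.6% of the Gpnmb UMIs with DON, against 33.5%, 43.4% and 24.8% in control. The monocyte and macrophage list summed to 673 CPM with DON, 1111 CPM at 50 µM and 778 CPM in control; its part in these differences was not tested.

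The lowest genes at 50 µM after Ankrd37, Aldoa, Mif and Scd2 were H1f0, a linker histone gene of non-dividing cells, with 83.7 CPM with DON and 27.1 CPM at 50 µM, against 97.2 CPM in control, and Cyp51. The highest were B3gnt5, a glycosyltransferase gene, with 16.5 and 57.3 CPM, against 16.1 CPM, and Prkd2, protein kinase D2, with 19.2 and 54.1 CPM, against 15.1 CPM. The integrin gene Itga1 had 105 and 234 CPM, against 83.2 CPM, and Itga4 had 46.7 and 110 CPM, against 52.6 CPM. Tnfaip2, an NF-kB-induced gene, had 82.7 and 167 CPM, against 60.4 CPM. Itga1 and Tnfaip2 were also higher at 50 µM in resting cDC1, with ratios of 1.28 and 1.09, while Prkd2 was not, with a ratio of 0.17.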

How the data were processed

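For each of the 3 libraries the authors deposited a matrix of UMI counts, not normalized, for 32285 genes in the barcodes that they had retained as cells. Cell Ranger is given as 6.0.0 per the file headers and as 3.1.0, on mm10, per the submitters' processing notes, so the version is not settled; the annotation is not given in the sources used here. Libraries held 8962, 9817 and 10497 barcodes (DON, 50 µM, control) and 87611658, 92002827 and 89340379 UMIs.

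Python 3.11.15 with scipy 1.17.1 and scanpy 1.11.5 was used. The members, the 37 gene lists and the comparisons were chosen with earlier results of these data known. UMIs of the members were summed per library and scaled to CPM; fold changes are log2 with 5 CPM added. List members were counted at 1.5-fold. Named genes were the 10 highest and 10 lowest ratios per treatment at 50 CPM or more, without genes of which 1 cell held over 10% of the UMIs, and leaving aside predicted genes and those of mitochondria, ribosomal proteins, globins and antibodies, plus up to 4 members of each list and a fixed set of 25 genes. The text gives those that describe each list. Scrublet (in scanpy, expected rate 0.08) marked 5.85%, 4.97% and 8.62% of the cells, which were kept in the main results. Of the list symbols, 1 (Mx1) was not analysed here. Gene positions are those of GENCODE vM21, which has 32196 of the 32245 gene IDs looked up. The summing and the ratios were checked on data with known folds. Other settings of the criteria, the depth, the scaling, the pseudocount and the minimum level were tried, 17 in all and 1 added later. Results for a few genes are not reported here.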

Additional observations from a re-analysis of the deposited data

Results flagged for a closer look

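At 50 µM glutamine, 3 gene lists had median log2 ratios to control of opposite sign in different populations, counting lists with at least 5 measured genes and medians of at least 0.2 in size in both. Other lists had opposite signs with a smaller median on 1 side, such as histones at -0.24 in cycling cDC1 and 0.04 in cycling plasmacytoid cells. The mitotic kinase, checkpoint and APC/C genes had a median of -0.21 in cycling cDC1 and 0.21 in cycling plasmacytoid cells (20 genes each). The spindle and cytokinesis genes had medians of -0.25 in cycling cDC1 and 0.33 in cycling plasmacytoid cells (25 genes each). The plasmacytoid genes had a median of -0.28 in cycling cDC1 (7 genes), against 0.29 in resting cDC1 (6 genes) and 0.28 in cycling plasmacytoid cells (13 genes). That median in cycling cDC1 was 0.06 in thinned cells, 0.36 with at least 3 cDC1 genes and 0.02 with no Siglech UMI, so its sign was not stable. None of these differences was tested, since each group is 1 library.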

How the results depend on the processing

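Results were recomputed under 17 other settings and 1 added after the data were seen. No paired analysis was possible because each group has 1 library, and no library could be left out. Values are DON over control, then 50 µM over control. The share ratios stayed on the same side of 1, except the cycling share of cDC1 at 50 µM, whose interval spans 1. Cycling cDC1 of the library were 0.455 and 0.079 in thinned cells, 0.845 and 0.199 with at least 3 cDC1 genes, 0.0901 (50 µM) with at least 5 and 0.214 (50 µM) without the Cd209a limit. cDC1 of cycling cells were 0.358 and 0.0409, 0.615 and 0.109, 0.0493 and 0.117 under those settings in that order. The cycling share of cDC1 at 50 µM lay on either side of control. Its ratio was 0.744 in thinned cells, and with at least 5 cDC1 genes it was 31.6%, against 34.1% in control. With at least 3 cDC1 genes it was 39.6%, against 34.2%, and with at least 1 UMI of Mki67 and Top2a 52.1%, against 45.2%. The S share ratio with DON was 1.18 with at least 1 UMI of Mki67 and Top2a, 1.08 with at least 4, 1.17 with at least 5 cDC1 genes and 1.09 without the Cd209a limit; at 50 µM it was 1.18 with at least 1 such UMI, 1.32 with 3 cDC1 genes, 1.19 with 5 and 1.15 when thinned. The G2/M ratio with DON was 1.07 with at least 1 UMI, 1.05 with 3 cDC1 genes, 1.08 without the Cd209a limit and 1.01 when thinned; at 50 µM it was 0.868 with at least 1 UMI, 0.872 with 3 cDC1 genes, 0.807 with 5, 0.855 when thinned and 0.852 without shared barcodes. Counts of genes past 2-fold moved most. With DON, higher genes were 40 when thinned, 8 with 5 cDC1 genes, 3 with a pseudocount of 20 CPM, and 0 with cells weighted equally or without the granule-rich cells; lower genes were 48 when thinned, 6 with 3 cDC1 genes, 4 with a pseudocount of 20 CPM, 2 at 50 CPM or more and 18 with no minimum. At 50 µM, higher and lower genes were 729 and 600 when thinned, where 18 members were left, 137 and 104 with 5 cDC1 genes, 114 and 79 with a pseudocount of 1 CPM, 15 and 18 with 20 CPM, 19 and 26 at 50 CPM or more, and 106 and 105 with no minimum; higher genes were 165 with 3 cDC1 genes and lower genes 30 with at least 1 UMI. The plasmacytoid median at 50 µM was 0.06 when thinned, 0.36 with 3 cDC1 genes and 0.02 with no Siglech UMI. For single genes, sign changes are listed only where the main ratio was at least 1.5-fold in size. Ratios that changed sign when thinned were, with DON, Elane -0.58, Ngp -1.27, Prtn3 -0.52, S100a8 -0.69 and S100a9 -0.14, and, at 50 µM, Ccnd2 -0.31, Cdk6 -2.72, Hmgcs1 0.42, Phgdh -2.20, Prtn3 1.46, Shmt2 -0.23 and Slc7a5 -0.52. With 3 cDC1 genes they were Gpnmb 0.04, Lpl 1.41 and Mmp12 0.00 with DON, and Elane 2.11, Gpnmb 0.46, Lpl 0.05, Prtn3 1.49, S100a8 2.81 and S100a9 2.64 at 50 µM. With cells weighted equally S100a8 was -0.44 and S100a9 -0.47 with DON. Without the granule-rich cells Elane was -0.02 and Prtn3 -0.29 with DON, and Elane 0.61, Prtn3 0.66, S100a8 0.43 and S100a9 0.30 at 50 µM. Prtn3 at 50 µM was 0.05 without Scrublet-marked cells. The cause of these changes was not tested. Of 1092 recomputed medians of lists and of all genes, 3 changed sign from a main median of at least 0.2 in size. Of the others, 1048 moved by at most 0.2 on the log2 scale and 41 by more. Sign changes of smaller main medians were not counted apart. The 48 members at 50 µM limit every value there.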
